A study of Homo sapiens with 8 samples.

Results

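The genes described here lie on the long arm of chromosome 11, in map order from UCP2 near the arm's inner end (11q13) to APLP2 near its tip (11q25). They were chosen by measured values, on the difference between 1 tumour, EV replicate 1, and the other 7 tumours, and 57 of the 60 listed genes were measured, out of 17709 transcript clusters (groups of probes that report 1 gene) with a gene symbol. PAK1, EED and HSPA8 were not analysed here. RNA came from 8 xenograft tumours, grown in nude mice, of the human ovarian cancer cell line SK-OV-3. In 4 tumours the cells carried pIND_BORA, a vector for overexpression of BORA, which helps Aurora A to switch on PLK1 before mitosis, and in 4 they carried the empty vector (EV). The labels give no age of the mice, no time of tumour growth and no number of transfected clones, and they do not say whether each tumour came from its own mouse, so a p-value reflects the spread among these tumours alone, part of which may be technical. The deposited values were read as log2 signals from their range, and folds hold only on that reading.

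A cell's RNA output from a chromosome arm depends in part on how many copies of that arm it carries, so a gain or loss of an arm can shift many neighbouring genes of unrelated function in 1 direction. The long arm of chromosome 11 holds CCND1, often amplified in carcinomas, a cluster of matrix metalloproteinase genes, and ATM, MRE11, CHEK1 and H2AX of the DNA damage response, and its outer part is lost in many tumours. No DNA was measured in these tumours. Whether any RNA difference given here follows a difference in copy number was not tested.

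EV replicate 1 stood apart from the other tumours across the transcriptome. Its array correlated with the others at 0.943 to 0.954, and the other 7 correlated among themselves at 0.981 to 0.992. Array medians lay between 6.96 and 7.07, and the share of clusters brighter than the 95th percentile of that array's 612 negative controls was 36.3% to 44.3%. EV replicate 1 had the lowest share and the highest control percentile, 8.24 against 7.62 to 8.13 in the others, and the part of this in its lower values was not tested. Squamous epithelial markers were above every other tumour in EV replicate 1 at 15 of 16 measured genes, with a median log2 difference of 7.10, and their summed level (log2 of the sum) was 18.79 there and 13.05 to 15.10 in the others. The 7 measured ovarian carcinoma markers all had lower values in EV replicate 1 than the mean of the others (median log2 difference -0.60); PAX8, which marks ovarian carcinoma cells, was at 12.02 against 13.69 ± 0.50 (SD, n = 7), and MUC16 and WT1 were below the control percentile on average over the tumours. Other cell type lists moved little as a whole. The 8 leukocyte markers had a median log2 difference of 0.01, with 4 lower and 4 not, and the 7 fibroblast markers 0.05, with 3 lower and 4 not, up to 2.51. Single bright genes of these lists differed: PTPRC, a leukocyte gene, was at 6.91 against 11.27 ± 1.21 and MFAP5, a fibroblast gene, at 5.91 against 12.22 ± 1.00 (SD, n = 7). Summed levels, which the brightest genes set, were 11.13 there and 11.70 to 13.26 in the others for leukocytes, and 14.84 there and 15.28 to 15.94 for fibroblasts. The 5 endothelial markers were all dim, with summed levels of 7.75 there and 7.75 to 9.39 in the others. These marker levels moved with every EV replicate 1 value given here, and their part in those values was not tested. The arrays are of a human design, and host cells of these tumours are mouse cells. What mouse RNA added to the marker values was not tested, so they are no count of host cells. In bulk tumour RNA, fewer cells of a type and less RNA per cell cannot be told apart. BORA itself was at 12.55 or more in each BORA tumour and at 7.32 or less in each EV tumour, with EV replicate 1 at 6.16.

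Along the arm, EV replicate 1 had less RNA from most of the listed genes. The difference between EV replicate 1 and the mean of the other 7 tumours had a median of -1.09 over the 57 measured members (log2; quartiles -1.57 and -0.57), and 55 were lower and 2 were not. EV replicate 1 was below each of the other 7 tumours at 43 members, 75.4%, where it was so at 22.2% of all clusters. It was at least 1 log2 unit below their mean at 32 members, 56.1%, against 7.46% of all clusters. These values chose the members, so they are a description and nothing is read from the shares. The listed genes were also well expressed: 38 members lay above the mean control percentile of 7.91 on average over the 8 arrays (called bright here), and among these the median was -1.31 with 31 below each other tumour, 81.6%, against 34.3% of all bright clusters. The 19 dim members had a median of -0.87. In EV replicate 1 itself 31 of the 57 members, 12 of them bright, were at or under that array's own control percentile of 8.24. For these 12 the difference is known only as a lower bound, from at least 1.02-fold at CDON to at least 3.58-fold at DPAGT1. For the 19 dim ones the mean of the other tumours was under that percentile too, so not even a bound can be given.

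**Figure D1:**
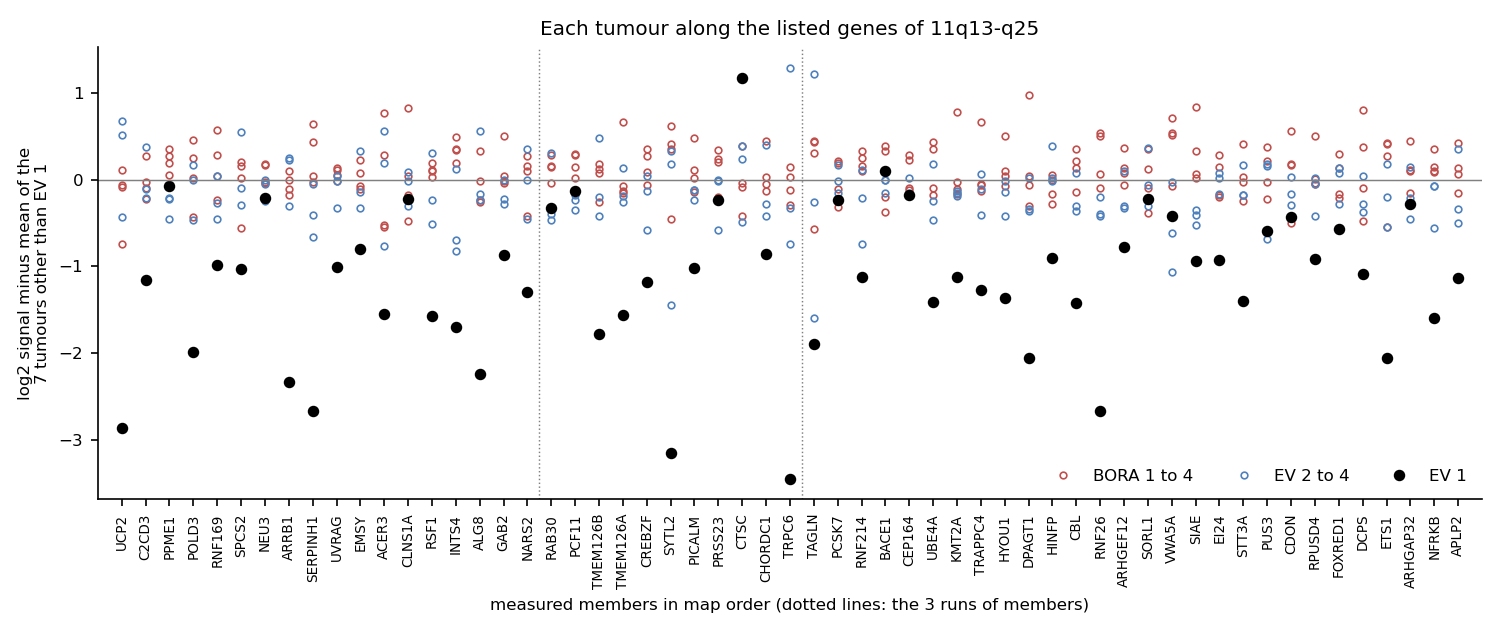
Log2 signal of each measured member in each tumour, minus the mean of the 7 tumours other than EV replicate 1, with members in map order; filled black points are EV replicate 1, open red points BORA replicates 1 to 4 and open blue points EV replicates 2 to 4. EV replicate 1 lies below each other tumour at 43 members and above each of them at CTSC.

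Members with lower values lay in each run of listed genes along the map, which follows from how they were chosen. The runs do not cover the whole arm, and no member lies between TRPC6 and TAGLN. The median difference was -1.23 over the 18 members from UCP2 to NARS2, -1.02 over the 11 from RAB30 to TRPC6, and -1.01 over the 28 from TAGLN to APLP2. The deposited values of the middle run spanned 1.17 at CTSC to -3.45 at TRPC6, whose level in EV replicate 1 was under the control percentile.

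Genes of chromatin and transcription were lower throughout. All 7 measured members were below each other tumour in EV replicate 1, with a median log2 difference of -1.17. KMT2A, a histone methyltransferase, was at 10.02 in EV replicate 1, at 10.97, 11.11, 11.92 and 11.03 in BORA replicates 1 to 4 and at 10.98, 10.95 and 11.01 in EV replicates 2 to 4. EV replicate 1 was thus the lowest, BORA replicate 3 the highest, and the other 6 tumours spanned a narrow range. ETS1, the founding ETS family transcription factor, was at 9.45 in EV replicate 1, at 10.96, 11.92, 11.93 and 11.79 in the BORA tumours and at 11.69, 10.96 and 11.31 in EV replicates 2 to 4, a log2 difference of -2.06. RSF1, a subunit of a chromatin remodelling factor, was at 8.96 against 10.53 ± 0.28, and EMSY, a partner of BRCA2, at 9.79 against 10.58 ± 0.23 (SD, n = 7). NFRKB, a subunit of the INO80 remodelling complex, had a difference of -1.59, CREBZF, a leucine zipper factor, -1.17, and HINFP, which activates histone genes, -0.90.

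The same held for the group of protein folding and N-glycosylation genes, most but not all of them of the endoplasmic reticulum. All 7 were below each other tumour (median log2 difference -1.40), and 6 were at least 1 log2 unit below. SERPINH1, the collagen chaperone HSP47, was at 8.74 in EV replicate 1, at 12.06, 11.85, 11.39 and 11.46 in the BORA tumours and at 10.75, 11.36 and 11.01 in EV replicates 2 to 4, 6.35-fold below the mean of the 7. EV replicate 1 was clear of every other tumour, and the highest 4 values were those of the BORA tumours. DPAGT1, which makes the first sugar-lipid of N-glycan synthesis, was at 8.02 against 11.06, 9.78, 10.01 and 10.12 in the BORA tumours and 9.72, 9.74 and 10.10 in EV replicates 2 to 4. ALG8, a glucosyltransferase of the same pathway, was at 8.40 against 10.64 ± 0.32, and STT3A, a catalytic subunit of the oligosaccharyltransferase that transfers the glycan, at 14.64 against 16.04 ± 0.23 (SD, n = 7). HYOU1, a chaperone of the endoplasmic reticulum, differed by -1.36, SPCS2, a signal peptidase subunit, by -1.03, and CHORDC1, a partner of the chaperone HSP90, by -0.86.

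The 5 mitochondrial members were below each other tumour as well (median log2 difference -1.56). UCP2, a carrier of the inner mitochondrial membrane, was at 9.99 in EV replicate 1, at 12.97, 12.11, 12.77 and 12.79 in the BORA tumours and at 12.42, 13.37 and 13.53 in EV replicates 2 to 4, 7.26-fold below the mean. The other tumours overlapped between the groups. TMEM126B and TMEM126A, neighbouring genes for assembly factors of respiratory complex I, differed by -1.78 and -1.56. FOXRED1, another complex I assembly factor, differed by -0.57 and NARS2, the mitochondrial asparaginyl-tRNA synthetase, by -1.29. Both were at levels under the control percentile, as was TMEM126A on average. TMEM126B was at 7.14 in EV replicate 1, under that array's control percentile, so its difference is a bound (at least 1.61-fold).

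Ubiquitin ligase genes had a median difference of -1.41, and all 5 were below each other tumour. RNF26, a ligase of the endoplasmic reticulum membrane, was at 6.49 in EV replicate 1, at 9.69, 9.06, 9.66 and 9.22 in the BORA tumours and at 8.74, 8.95 and 8.76 in EV replicates 2 to 4. EV replicate 1 was under its control percentile, and against that percentile the mean of the others was at least 1.89-fold higher. CBL, which ubiquitinates activated receptor tyrosine kinases, was at 7.90 against 9.32 ± 0.27 and UBE4A, which extends ubiquitin chains, at 10.07 against 11.48 ± 0.33 (SD, n = 7). RNF169, which binds chromatin at DNA breaks, differed by -0.98 and RNF214 by -1.12. POLD3, a subunit of DNA polymerase delta, was at 7.34 in EV replicate 1, at 9.34, 9.57, 9.78 and 8.90 in the BORA tumours and at 9.32, 8.87 and 9.50 in EV replicates 2 to 4. With RNF169 it made up the replication and repair group, where both members were below each other tumour.

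Of the 8 members of endocytosis and membrane traffic, 6 were below each other tumour (median log2 difference -1.01). SYTL2, which tethers secretory vesicles through Rab GTPases, was at 10.39 in EV replicate 1, at 13.10, 13.95, 13.89 and 14.16 in the BORA tumours and at 13.72, 12.09 and 13.88 in EV replicates 2 to 4. EV replicate 3 was the next lowest, so the 8.91-fold difference sat beside a wide spread among the others. ARRB1, the receptor adaptor beta-arrestin, was at 8.69 against 11.02 ± 0.21, and PICALM, a clathrin adaptor, at 12.83 against 13.84 ± 0.24 (SD, n = 7). TRAPPC4, a subunit of a tethering complex, differed by -1.27, UVRAG, an autophagy factor, by -1.01 and EI24, a membrane protein of the endoplasmic reticulum, by -0.93. SORL1, a sorting receptor, and RAB30, a Golgi GTPase, were lower than the mean by smaller amounts (-0.22 and -0.33) and lay within the range of the other tumours.

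Signalling and cytoskeleton genes ranged widely. TRPC6, a calcium-permeable channel, was at 6.24 in EV replicate 1, at 9.83, 9.57, 9.40 and 9.72 in the BORA tumours and at 8.95, 9.37 and 10.99 in EV replicates 2 to 4. EV replicate 1 was under its control percentile, and against that percentile the mean of the others was at least 2.74-fold higher. EV replicate 4 was the highest tumour by over 1 log2 unit. TAGLN, an actin-binding protein of smooth muscle and fibroblasts, was at 7.03 in EV replicate 1, at 9.36, 9.38, 9.24 and 8.36 in the BORA tumours and at 8.67, 10.15 and 7.33 in EV replicates 2 to 4, and EV replicate 4 lay close to EV replicate 1. ARHGEF12, a guanine nucleotide exchange factor, differed by -0.78 and GAB2, an adaptor of receptor signalling at a dim level, by -0.87. ARHGAP32 and CDON, a co-receptor of hedgehog signalling, differed by -0.28 and -0.43 and were not below each other tumour.

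RNA processing members had a median of -0.92, and 4 of 7 were below each other tumour. INTS4, a subunit of the Integrator complex that processes small nuclear RNA, was at 5.63 in EV replicate 1, at 7.69, 7.52, 7.82 and 7.67 in the BORA tumours and at 6.51, 6.64 and 7.46 in EV replicates 2 to 4, all under the mean control percentile. DCPS, the scavenger decapping enzyme, differed by -1.09 and RPUSD4, a pseudouridine synthase, by -0.92. PCF11, a factor of transcript cleavage and termination, CLNS1A, a factor of spliceosomal particle assembly, and PUS3, a pseudouridine synthase, were not below each other tumour, with differences of -0.13, -0.23 and -0.59. Of the 3 lipid and sialic acid enzymes, ACER3, a ceramidase, was at 9.31 against 10.85 ± 0.60 (SD, n = 7), SIAE, which removes acetyl groups from sialic acid, differed by -0.93, and NEU3, a sialidase, by -0.20. Of the centriole and cilium genes C2CD3 differed by -1.16 and CEP164 by -0.18.

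Proteases and genes of amyloid precursor processing varied. Of these 5 members 3 had lower values in EV replicate 1 than the mean of the others, and 2 were bright, APLP2 and CTSC. APLP2 was the 1 of the 5 below each other tumour (14.71 against 15.84 ± 0.34, SD, n = 7). CTSC, the lysosomal dipeptidyl peptidase cathepsin C, was at 13.17 in EV replicate 1, at 12.38, 11.96, 11.92 and 11.59 in the BORA tumours and at 12.24, 11.52 and 12.39 in EV replicates 2 to 4. It was the 1 member that EV replicate 1 had above every other tumour. The gene just before CTSC on the map, RAB38, a GTPase of lysosome-related organelles and no member, was also above each other tumour. RAB38 was at 10.81 against 9.64 ± 0.34 (SD, n = 7). BACE1, the beta-secretase, was at 7.20 against 7.09 ± 0.28, and PCSK7, a proprotein convertase, and PRSS23, a serine protease, differed by -0.23 each, all 3 at dim levels. VWA5A, whose deposited level was also dim, differed by -0.42, and PPME1, the methylesterase of protein phosphatase PP2A, by -0.07. With SORL1, RAB30, ARHGAP32, CDON, PCF11, CLNS1A, PUS3 and NEU3 these made up the 14 members that were not below each other tumour.

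**Figure D2:**
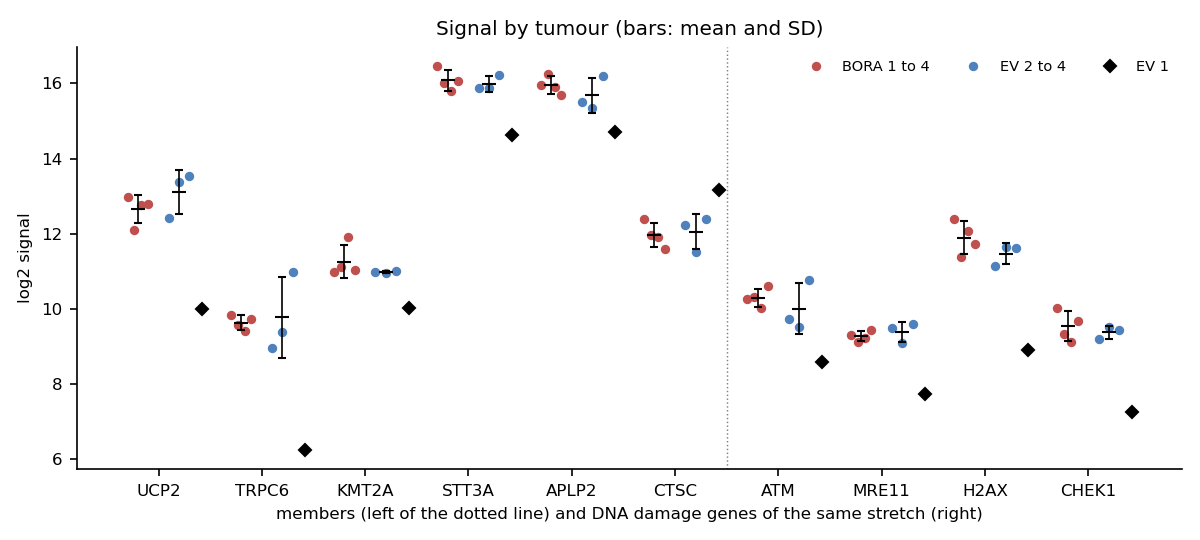
Log2 signal of 6 members and of 4 DNA damage genes of the same stretch in each tumour; red points are BORA replicates 1 to 4, blue points EV replicates 2 to 4, black diamonds EV replicate 1, and bars the mean and SD of the red or blue points. EV replicate 1 is below every other tumour at each gene drawn except CTSC, where it is at 13.17 and the others reach 12.39; levels of different genes are not comparable.

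PPME1 and C2CD3 are shown by sequence because they start 287 bases apart on opposite strands, so that the 300-base windows around their starts overlap, and yet their values in EV replicate 1 differed. C2CD3 was at 7.42 in EV replicate 1, at 8.85, 8.55, 8.48 and 8.36 in the BORA tumours and at 8.48, 8.37 and 8.96 in EV replicates 2 to 4. PPME1 was at 10.52 in EV replicate 1, at 10.78, 10.95, 10.87 and 10.65 in the BORA tumours and at 10.38, 10.37 and 10.14 in EV replicates 2 to 4. EV replicate 1 was thus the lowest tumour for C2CD3, while for PPME1 it lay between the BORA tumours and the other EV tumours. The C2CD3 value of EV replicate 1 was under that array's control percentile of 8.24. Against that percentile the mean of the others was at least 1.27-fold higher, so the size of the C2CD3 difference is only a bound. The sequences are those of RefSeq on GRCh38.p14, 250 bases before to 50 after each start, 5′ to 3′ on the gene's strand, at chr11:74170953-74171252 (minus strand) for C2CD3 and chr11:74171039-74171338 (plus strand) for PPME1. Capitals mark CCGGAAG or its reverse complement CTTCCGG, the core of sites for ETS family factors, to which the member ETS1 belongs.
C2CD3: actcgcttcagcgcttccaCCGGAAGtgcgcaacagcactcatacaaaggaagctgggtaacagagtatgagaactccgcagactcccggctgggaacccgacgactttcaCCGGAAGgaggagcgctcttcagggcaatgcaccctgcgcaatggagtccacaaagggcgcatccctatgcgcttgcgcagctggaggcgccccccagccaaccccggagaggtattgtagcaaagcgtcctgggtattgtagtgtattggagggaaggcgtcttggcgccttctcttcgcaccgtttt
PPME1: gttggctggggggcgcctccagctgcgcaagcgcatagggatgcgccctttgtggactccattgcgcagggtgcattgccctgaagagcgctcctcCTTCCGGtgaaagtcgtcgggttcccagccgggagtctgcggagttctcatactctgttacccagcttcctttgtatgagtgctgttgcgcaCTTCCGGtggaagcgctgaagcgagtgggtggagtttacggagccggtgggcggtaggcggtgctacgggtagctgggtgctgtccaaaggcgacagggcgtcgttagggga

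The C2CD3 and PPME1 windows each held 2 matches, in the part they share. Promoter windows were found for 48 members, and 13 of them, 27.1%, held CCGGAAG on either strand in any of their windows. Counted in the same way, 16.6% of 14250 measured genes did, and of 35116 single promoters 10.3% did. Most members are bright, and no share over bright genes alone was computed, so nothing is read from these shares. The median log2 difference of EV replicate 1 was -1.16 over the 13 with a match and -0.98 over the 35 without. A match is a description of letters and not of binding. Among other neighbours that start head to head, ALG8 (-2.24) and KCTD21-AS1 (-0.47) lay 167 bases apart, RSF1 (-1.57) and AAMDC (-1.03) 422, SIAE (-0.93) and SPA17 (-0.70) 165, and TRAPPC4 (-1.27) and RPS25 (-1.27) 423. TMEM126B (-1.78) started 200 bases from DLG2 (0.08), which was at 3.40 in EV replicate 1, a dim level.

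The label names 11q13 to 11q25, and the data placed no start of the lower values at UCP2. In a map of 25-gene blocks over all bright clusters (287 blocks, 16 of them on chromosome 11), the 6 blocks with the lowest medians in EV replicate 1 all lay on chromosome 11: YAP1 to DIXDC1 (-1.21), TRAPPC4 to GLB1L2 (-1.19), PRCP to TRPC6 (-1.17), CORO1B to ANAPC15 (-1.08), INPPL1 to ALG8 (-1.03) and NKAPD1 to RPS25 (-1.02). The YAP1 to DIXDC1 and CORO1B to ANAPC15 blocks held 0 members, and the second lies before UCP2. All 16 chromosome 11 blocks had medians below 0, from -0.32 (PATL1 to ROM1) to -1.21. Bright genes of chromosome 11 before UCP2 had a median of -0.63 over 284 genes, the 84 bright non-members between UCP2 and APLP2 a median of -1.11, and the 5 bright genes after APLP2 -1.10. The -0.63 pools the short arm and the inner long arm: medians were -0.32 to -0.84 in the 10 blocks up to RPS6KB2 and -1.02 to -1.21 in the 6 blocks from CORO1B outwards. The lower level was thus shared by the bright members (-1.31) and their unlisted bright neighbours and was not limited to the listed stretch.

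**Figure D3:**
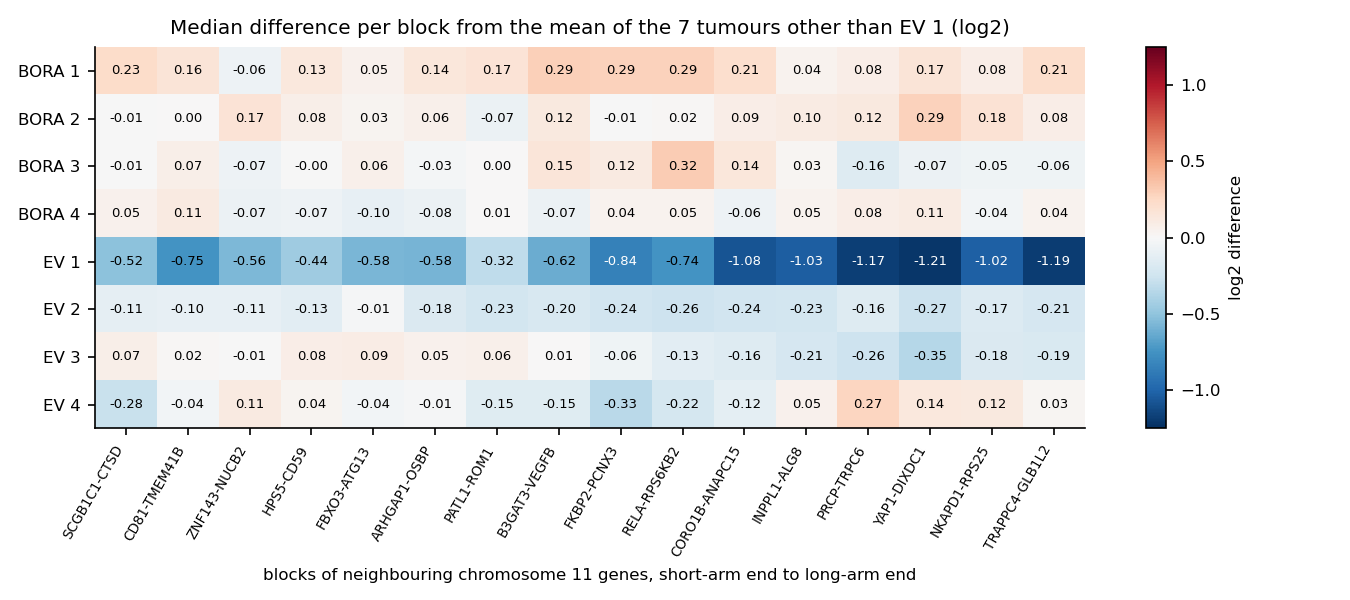
Median log2 difference from the mean of the 7 tumours other than EV replicate 1, per block of 25 bright genes (the last block holds 36) along chromosome 11 (columns, from the short-arm end to the long-arm end) and per tumour (rows), with the value printed in each cell. EV replicate 1 is below 0 in all 16 blocks and reaches -1.21 in the block from YAP1 to DIXDC1; no other tumour goes below -0.35.

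Other chromosomes showed smaller shifts in EV replicate 1. Over the bright clusters the median of chromosome 11 was -0.80 (411 genes), followed by chromosome 4 at -0.56 and chromosome 6 at -0.31, and chromosome 13 was highest at 0.28. All bright clusters not on chromosome 11 had a median of -0.13. The lowest block off chromosome 11, ACOT13 to BTN2A1 on chromosome 6, was at -0.98. Members were chosen on this same contrast, so the rank of the blocks that hold them is partly built in. The YAP1 to DIXDC1 and CORO1B to ANAPC15 blocks of chromosome 11, which hold no members, were also lower than any block elsewhere. They neighbour genes that the same contrast chose, on the same array, so their rank is no independent support. All of this rests on 1 array without a replicate of its own.

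**Figure D4:**
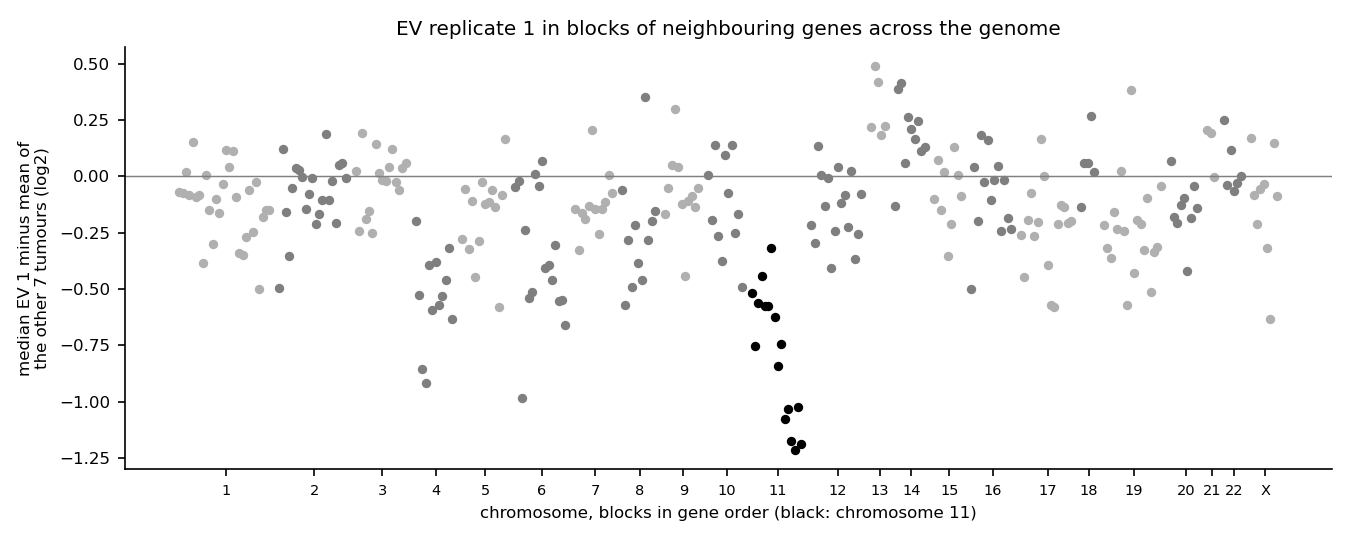
Median log2 difference of EV replicate 1 from the mean of the other 7 tumours in 287 blocks of neighbouring bright genes, in gene order by chromosome; black points are the 16 blocks of chromosome 11. The 6 lowest points are chromosome 11 blocks, at -1.02 to -1.21, and the lowest of the others is at -0.98.

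Unlisted genes of the stretch split by level. The 303 non-members between UCP2 and APLP2 had a median log2 difference of -0.15, since 219 of them were dim (median -0.04), and 70 of the 84 bright ones were below each other tumour. The lowest of the bright genes were MMP1, an interstitial collagenase (10.08 against 14.59 ± 1.97), CLMP, a junction protein (7.57 against 10.86 ± 0.34), MMP7, the protease matrilysin (10.56 against 13.43 ± 0.66), H2AX and TLCD5 (5.82 against 8.25 ± 0.37; SD, n = 7 for each). The highest were TRIM29 (15.14 against 9.92 ± 1.66), NECTIN1, an adhesion receptor (15.22 against 12.76 ± 0.70), MPZL2, an epithelial adhesion molecule (16.14 against 14.87 ± 0.36), RAB38 and TMPRSS4, a membrane serine protease (10.87 against 9.93 ± 0.84; SD, n = 7 for each). TRIM29 is known from basal and squamous epithelium, whose marker levels stood high in this tumour. The means here include the BORA tumours. MMP1 was at 13.35, 11.17 and 13.51 in EV replicates 2 to 4 and at 15.50 to 16.70 in the BORA tumours, so its difference of -4.51 from all 7 was -2.60 from EV replicates 2 to 4 alone. For the other 4 of the lowest the difference from EV replicates 2 to 4 was -2.21 to -3.06, and for TRIM29 it was 6.03. CLMP and TLCD5 were under the control percentile in EV replicate 1, so their differences are bounds.

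The 4 DNA damage genes of the arm, none of them members, were each below every other tumour in EV replicate 1. ATM, the kinase that senses double-strand breaks, was at 8.59 in EV replicate 1, at 10.27, 10.31, 10.01 and 10.60 in the BORA tumours and at 9.74, 9.52 and 10.77 in EV replicates 2 to 4. H2AX, the histone variant phosphorylated at breaks, was at 8.89, against 12.39, 11.37, 12.07 and 11.73 in the BORA tumours and 11.15, 11.64 and 11.61 in EV replicates 2 to 4. CHEK1, the checkpoint kinase downstream of ATR, differed by -2.22 and MRE11, the nuclease of the break-sensing complex, by -1.58. YAP1, the hippo pathway coactivator, BIRC2, an inhibitor of apoptosis, and DYNC2H1, a dynein of cilia, differed by -0.75, -1.28 and -1.25, again below each other tumour.

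The 12 genes of the 11q13 amplicon list, which lies before UCP2, were less uniform (median -0.19), and 3 of them were bright. The bright ones were CCND1, cyclin D1 (10.73 against 11.53 ± 0.36), CTTN, cortactin (9.44 against 10.08 ± 0.32), and MYEOV (8.56 against 9.82 ± 0.45; SD, n = 7 for each), all below each other tumour. PPFIA1, a scaffold of focal adhesions, FADD, the death receptor adaptor, and TPCN2, a lysosomal channel, differed by -0.87, -0.41 and -0.43. ANO1, a chloride channel, was at 10.54 against 5.74 ± 0.58 (SD, n = 7), above every other tumour, as was SHANK2, a scaffold protein (0.66). LTO1, FGF19, FGF4 and FGF3 were dim, with differences of 0.36, 0.03, 0.17 and 0.02.

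Of the genes flanking the members, RAB6A (-0.37), MRPL48 (-1.13), COA4 (-0.49) and PAAF1 (-1.31) on the inner side were below each other tumour and the dim DNAJB13 (0.20) was not. On the outer side ZBTB44 (-0.66) was, while ST14, an epithelial serine protease, was at 9.68 against 7.52 ± 1.05 (SD, n = 7) and ADAMTS8 (0.40), ADAMTS15 (-0.09) and LINC02551 (-0.14) were dim. ST14 also reached 9.55 in EV replicate 3.

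Genes elsewhere in the genome whose products work with the members' products were set beside them. Partners of POLD3 in DNA polymerase delta and its clamp loader had a median of -1.04 over 8 genes not on chromosome 11, close to the members, with PCNA, the clamp, at -1.0, RFC4 at -1.09, RFC1 at -1.40 and RFC5 at -1.10. Subunits that work with STT3A had a median of -0.42 over 9 genes, with RPN1 at -0.29, OST4 at -0.26, RPN2 at -0.42 and DAD1 at -0.90. Partners of KMT2A had -0.59 over 6 (HCFC1 -0.74, DPY30 -0.19, PSIP1 -1.36, WDR5 -0.69), those of SPCS2 -0.48 over 4 (SPCS3 -0.60, SEC11A -0.37, SPCS1 -0.98, SEC11C 0.11) and those of PCF11 -0.36 over 8 (NUDT21 -0.74, FIP1L1 -1.01, CPSF6 -0.02, CPSF2 -0.38). Partners of INTS4 had -0.15 over 11 (INTS3 0.39, INTS12 -0.15, INTS13 -0.15, INTS14 -0.50), those of TRAPPC4 0.04 over 12 (TRAPPC1 -0.48, TRAPPC10 -0.01, TRAPPC3 -0.08, TRAPPC11 -0.23) and the polycomb genes of EED -0.06 over 9 (RBBP7 -0.77, AEBP2 0.73, RBBP4 -1.02, SUZ12 -0.94). INTS4 itself was at -1.70, at a dim level, TRAPPC4 at -1.27 and PCF11 at -0.13. Off chromosome 11, all 8 genes of the POLD3 list, 6 of 6 of KMT2A, 8 of 8 of PCF11 and 8 of 9 of STT3A were lower than the mean of the others. For SPCS2 it was 3 of 4, for EED 6 of 9, for INTS4 6 of 11 and for TRAPPC4 6 of 12. Of 6806 bright clusters on other chromosomes 3957 were lower. The members were chosen on this same contrast and their partners were not. Nothing is therefore read from where a member lay against its partners, and none of these differences was tested.

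None of the other 7 tumours had a shift of similar size along the listed genes. The members were chosen on the difference of EV replicate 1 from these 7. This was thus largely fixed in advance, and nothing is read from it. The reference differed as well. EV replicate 1 was set against all 7, and each of the 7 against the mean of the other tumours of its group (EV replicate 1 left out). The latter ties the values within a group: 1 high tumour makes the others low. The medians over the 57 members were 0.06, 0.13, -0.06 and -0.16 in BORA replicates 1 to 4 and -0.13, -0.22 and 0.36 in EV replicates 2 to 4. EV replicate 4 was higher than the mean of EV replicates 2 and 3 at 46 of 57 members, and over the bright non-members of the stretch its median was 0.40, against -0.02 over all bright clusters. EV replicate 3 had the lowest value of the 7 tumours at 24 members and EV replicate 2 at 15, and BORA replicates 1, 2, 3 and 4 had it at 1, 2, 6 and 5. By blocks, EV replicate 4 was highest at PRCP to TRPC6 (0.48), where EV replicate 3 was lowest (-0.45), and BORA replicate 3 was lowest at YAP1 to DIXDC1 (-0.32). Blocks of similar size occurred on other chromosomes in the same tumours, down to -0.54 (chromosome 14) and up to 0.49 (chromosome 6) in EV replicate 4, and down to -0.47 (chromosome 6) and up to 0.55 (chromosome 19) in EV replicate 3.

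The comparison of BORA with EV tumours, which addresses the effect of the BORA vector, was tested over the 7 arrays without EV replicate 1. It is not the contrast that chose the members, but the 2 are not independent. The mean of 7 tumours in that contrast included the 4 BORA tumours. A gene higher in BORA tumours was thus more likely to be chosen, and nothing is read from the members' directions below. Of the 57 members 0 passed at a limma adjusted p under 0.05, where 91 of 17709 clusters (0.514%) did, 77 higher and 14 lower in BORA. At an unadjusted limma p under 0.05 there were 9 members, 15.8%, against 15.3% of all clusters. All 9 were higher in BORA tumours, as were 1363 of 2713 such clusters and 853 of 1108 such bright clusters. Of the members 46 were higher and 11 lower in BORA tumours, with a median log2 difference of 0.26 against -0.03 over all clusters (0.27 against 0.09 over bright ones). Over all clusters 8169 were higher and 9540 lower. Bright clusters were mostly higher as well, 4476 against 2741 lower, and the bright members were 29 higher and 9 lower. The 303 non-members of the stretch, most of them dim, were 148 higher and 155 lower (median -0.01). BORA tumours were all above EV replicates 2 to 4 at 7 members, 12.3%, against 6.66% of all clusters, and all below them at 0, against 7.68%. Among bright clusters it was 5 of 38 members all above, 13.2%, against 10%, and 0 all below, against 3.34%. Over all 8 arrays 0 members passed, against 0.102% of all clusters, and the median was 0.47. These share every array with this comparison and add EV replicate 1, whose values chose the members, so that median is partly built in.

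The 5 members with the smallest p did not pass the limma threshold. VWA5A was at 5.16, 4.54, 5.13 and 5.33 in the BORA tumours and at 4.0, 3.55 and 4.58 in EV replicates 2 to 4, a log2 difference of 0.99 (SE 0.26, limma adjusted p = 0.120). INTS4 was higher in every BORA tumour than in EV replicates 2 to 4 (0.81, SE 0.23, limma adjusted p = 0.135). SIAE was at 7.11, 6.84, 6.79 and 7.61 against 6.37, 6.43 and 6.25 (0.74, SE 0.21, limma adjusted p = 0.138); these 3 genes were dim. PPME1 (0.52, SE 0.16, limma adjusted p = 0.171) and SERPINH1 (0.65, SE 0.22, limma adjusted p = 0.197) were also higher in every BORA tumour. Without EV replicate 4 as well, VWA5A (1.26, limma adjusted p = 0.0466) and INTS4 (1.10, limma adjusted p = 0.0238) passed, so these 2 calls turn on 1 tumour. Of members with large deposited differences in EV replicate 1, UCP2 was at -0.45 (95% interval -1.07 to 0.18), TRPC6 at -0.14 (-0.98 to 0.71) and SYTL2 at 0.55 (-0.33 to 1.42).

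**Figure D5:**
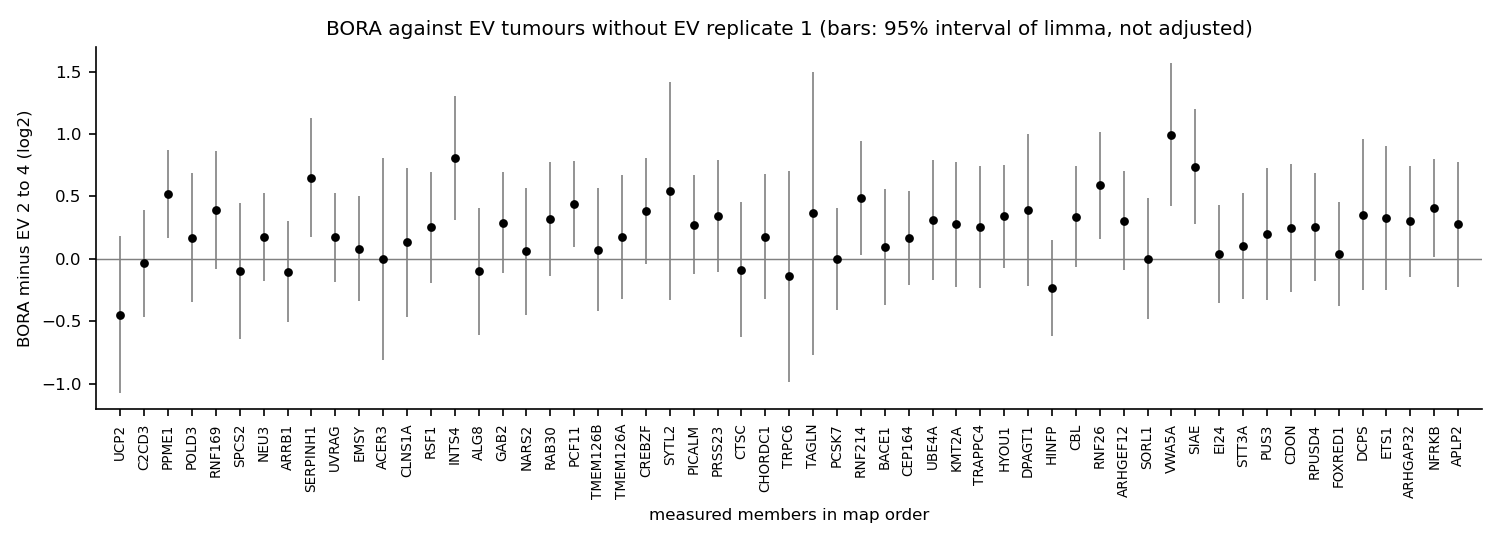
Log2 difference of the mean of the 4 BORA tumours from the mean of EV replicates 2 to 4 for each measured member in map order; bars are the 95% interval of limma, not adjusted for the number of genes. Most points lie above 0 (46 of 57), from -0.45 at UCP2 to 0.99 at VWA5A, and the bars of 48 members cross 0.

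By role, 0 members passed in either direction in each of the 12 groups. The median log2 differences were 0.28 for chromatin and transcription, 0.39 for ubiquitin ligases and 0.30 for signalling and cytoskeleton. They were 0.18 for protein folding and N-glycosylation and 0.06 for mitochondria. Among the other arm lists, 0 of 4 DNA damage genes passed (H2AX 0.43, ATM 0.29, CHEK1 0.16, MRE11 -0.11), 0 of 3 of the YAP1 list (YAP1 0.57, limma adjusted p = 0.126) and 0 of 12 of the amplicon list (CTTN 0.54, limma adjusted p = 0.170). Of the 9 measured metalloproteinase genes 2 rose and 0 fell. They were MMP13, a collagenase (log2 difference 5.50, SE 0.68, limma adjusted p = 0.00998), and MMP1 (3.35, SE 0.49, limma adjusted p = 0.0173). Of the 303 non-members of the stretch 5 passed, all higher in BORA tumours, the other 3 being CADM1, an adhesion molecule (1.60), FLI1, another ETS family transcription factor (2.65), and BARX2, a homeobox factor (1.43), named after their values were seen. Of the 73 measured genes of the 8 partner lists 0 passed. Among cell type markers 0 of 16 squamous genes passed, and PTPRC, 1 of 8 leukocyte genes, was lower in BORA tumours (limma adjusted p = 0.0194); the part of other cells in these values was not tested.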

How the data were processed

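Total RNA of 8 tumours, 4 BORA and 4 EV, was labelled with biotin and measured on 1 Affymetrix array each. The authors used Affymetrix Expression Console, as the submitters' processing notes name it, and deposited 1 log2 value per transcript cluster and array. The log base was read from the range of the values, since no label states it. Version, summary step and normalization: not given in the sources used here. Which array design was used is uncertain, because the series' text and the row identifiers point to different Affymetrix human arrays. Gene order came from RefSeq on GRCh38.p14, and promoters were matched by symbol.

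Members and gene lists were chosen with earlier results of these data known. Values of EV replicate 1 chose the members, so no p-value was computed for them; Dixon's rule was applied to the members within each group. BORA minus EV was fitted over the 7 arrays without EV replicate 1 with limma 3.58.1 (R 4.3.3; lmFit, eBayes, no covariates) on all 17709 named clusters, with Benjamini-Hochberg adjustment, a threshold of 0.05 and no filter; the step was tested on simulated data. Summaries used Python 3.11.15. Named genes were the 12 members lowest in EV replicate 1 and those not lower, the 5 smallest p where none passed, up to 4 of each role and partner list by mean level, the 5 lowest and 5 highest bright neighbours, the arm lists and the 5 flanking genes on each side; other members are given for completeness. Genes with no named cluster are not analysed here. Alternatives were quantile normalization, median centring, a filter on dim clusters, other reference tumours, an intensity trend with robust fitting, array weights, a replicate block, all 8 arrays and leaving out each array. The number of arrays limits the precision.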

Additional observations from a re-analysis of the deposited data

Results flagged for a closer look

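Within the groups of 4 tumours, 11 of 114 groups over the 57 members had a single tumour farther from the nearest other than Dixon's 95% critical value allows, 0.829 of the group's range; chance gives about 1 in 20 groups. Of these, 7 lay in the 57 BORA groups and 4 in the EV groups, which hold EV replicate 1. Values of that tumour chose the members, so the EV groups cannot be set against the chance rate, and flags in EV replicate 1 restate that choice. In EV replicate 1 these were PICALM (12.83), KMT2A (10.02) and RNF26 (6.49), each far below the other EV tumours. In BORA replicate 1 TMEM126A (8.04) and TRAPPC4 (9.05) were far above the other BORA tumours and ETS1 (10.96) far below them. In BORA replicate 3 GAB2 (4.90) and KMT2A (11.92) stood high, in BORA replicate 2 RPUSD4 (7.16) stood high, and in BORA replicate 4 TAGLN (8.36) stood low. CEP164 (7.76) stood high in EV replicate 4.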

How the results depend on the processing

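The lower level of the listed genes in EV replicate 1 kept its direction and size under quantile normalization, median centring, either group alone as reference and leaving out each other tumour (medians -1.23 to -0.95). Without dim clusters it moved from -1.09 to -1.31 over the members and from -0.15 to -1.11 over the other genes of the stretch, with fewer genes counted. The medians of the other 7 tumours kept their direction in all 4 alternatives run on them. For BORA minus EV over 7 arrays, the count of members past the threshold was 0 in each alternative except without EV replicate 4 (leaving out each array gave 0 to 2). The number of called clusters went from 91 to 40 without dim clusters, to 18 over all 8 arrays and to 25 to 152 when each array was left out; the median over the members went from 0.26 to 0.47 over 8 arrays. Leaving out BORA replicate 2, 3 or 4 or EV replicate 3 or 4 gave 25, 34, 40, 59 and 152 called clusters. With the replicate number as a replicate block, 79 clusters and 0 members passed and the members' median was 0.22. Deviations of tumours with the same number correlated at 0.07, 0.06 and 0.09, and those of tumours with different numbers at -0.15 to 0.13. So few pairs cannot show whether the number marks a pairing. No result run here reversed. Signal over background limits what the 19 dim members can show. EV replicate 1 is 1 array, so nothing gives its own spread, and the normalization behind the deposited values is unknown.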
